A study of Mus musculus with 12 samples.

Results

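Chemokines and chemokine receptors were followed in the hippocampus of 12 female mice. The members were all genes on the array whose symbol begins with Ccl, Ccr, Cxcl or Cxcr and a digit, together with Xcl1, Xcr1 and Cx3cl1, and 54 of the 29608 genes on the array met this rule. Of these, 36 encode ligands and 18 encode receptors or receptor-like proteins. They were represented by 69 probes of 60 bases, and 11 members had several probes.

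There were 4 mice of each phenotype, MRL/lpr, Fn14ko and MRL/+, all adult females in diestrus. MRL/lpr mice develop spontaneous systemic lupus on the MRL background because the lpr allele disables Fas. Fn14ko mice (labelled Fn14koMRL) are of the MRL/lpr background, carry the lpr allele too, and were littermates from a backcross that lack Tnfrsf12a, the gene of Fn14, the receptor of the cytokine TWEAK. MRL/+ mice (labelled MRL/MpJ) share the MRL background with intact Fas and intact Fn14, and came from another supplier. No group was treated. The study asked how the lupus genotype, and the loss of Fn14 on it, change hippocampal gene expression. The samples are labelled hippocampus by tissue and source, whereas a free-text description names cortex. All 8 hippocampal marker genes examined were well above background in some mice, 5 of them in at least 10 of the 12.

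Each of the 6 arrays carried 2 mice of the same phenotype, replicates 1 and 3 in Cy3 and replicates 2 and 4 in Cy5. Each phenotype had its own slide and its own scan session, so slide, scan and phenotype cannot be told apart. One array, that of MRL/lpr 3 and 4, was weak: its spots had a median foreground of 1.93 and 1.73 times the local background, against 4.43 to 12.6 times in the other 10 samples. Tnfrsf12a gave 0.439, 0.307, 0.241 and 0.247 in MRL/lpr mice 1 to 4, 0.177, 0.160, 0.189 and 0.151 in Fn14ko mice and 0.283, 0.629, 0.503 and 0.502 in MRL/+ mice. It was dimmest in the mice labelled Fn14ko but well above background in all 4 of them, and whether the probe lies in the deleted part of the gene is not given in the sources used here. These values are levels, as are all below: the signal of a probe after subtraction of its local background, divided by the median of the channel over spots that were bright in all 12 samples. A level of 1 is thus that of a typical clearly expressed gene in the same sample, and levels of different probes are not compared.

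Chemokines are small secreted proteins that bind G protein-coupled receptors and direct the migration of leukocytes along their gradients. Their names follow the spacing of the first conserved cysteines (C, CC, CXC and CX3C), and receptors are named after the class they bind. Some, such as fractalkine (Cx3cl1) and Cxcl12, are made constitutively by neurons, glia or vessels of the brain, whereas most inflammatory members are nearly silent in healthy tissue and are induced by interferons or NF-kB. In tissue such as this, which holds several cell types, fewer cells of a type and less RNA per cell cannot be told apart.

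Most members lay at or near background. The scanner software called 36, 29, 16 and 16 of the 54 members well above background in MRL/lpr mice 1 to 4, compared with 28, 21, 29 and 17 in Fn14ko mice and 26, 11, 24 and 11 in MRL/+ mice. The counts of 16 and 11 belong to the weak array and to the Cy5 channel of the MRL/+ arrays, where all genes were also detected less often. Of all genes, 29.96% and 24.3% were well above background in MRL/lpr 3 and 4, and 33.0% and 34.98% in MRL/+ 2 and 4. In the other 8 samples 52.8% to 67.9% were. Fn14ko 4 was 1 of these 8, with 17 members beside 52.8% of all genes. In all 4 mice of a phenotype, 12 members were well above background in MRL/lpr (22.2% of members, beside 19.8% of all genes), 16 in Fn14ko (29.6%, beside 51.9%) and 10 in MRL/+ (18.5%, beside 32%). Ccl19, Ccl21b, Ccl27a, Cx3cl1, Cxcl11 and Cxcl14 were well above background in all 12 mice. In contrast, 14 members were in none (25.9%, beside 22.6% of all genes): the ligands Ccl20, Ccl22, Ccl26, Cxcl15, Cxcl17 and Xcl1, the receptors Ccr2, Ccr4, Cxcr1, Cxcr2, Cxcr4, Cxcr5 and Xcr1, and the receptor-like Ccr1l1.

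**Figure D1:**
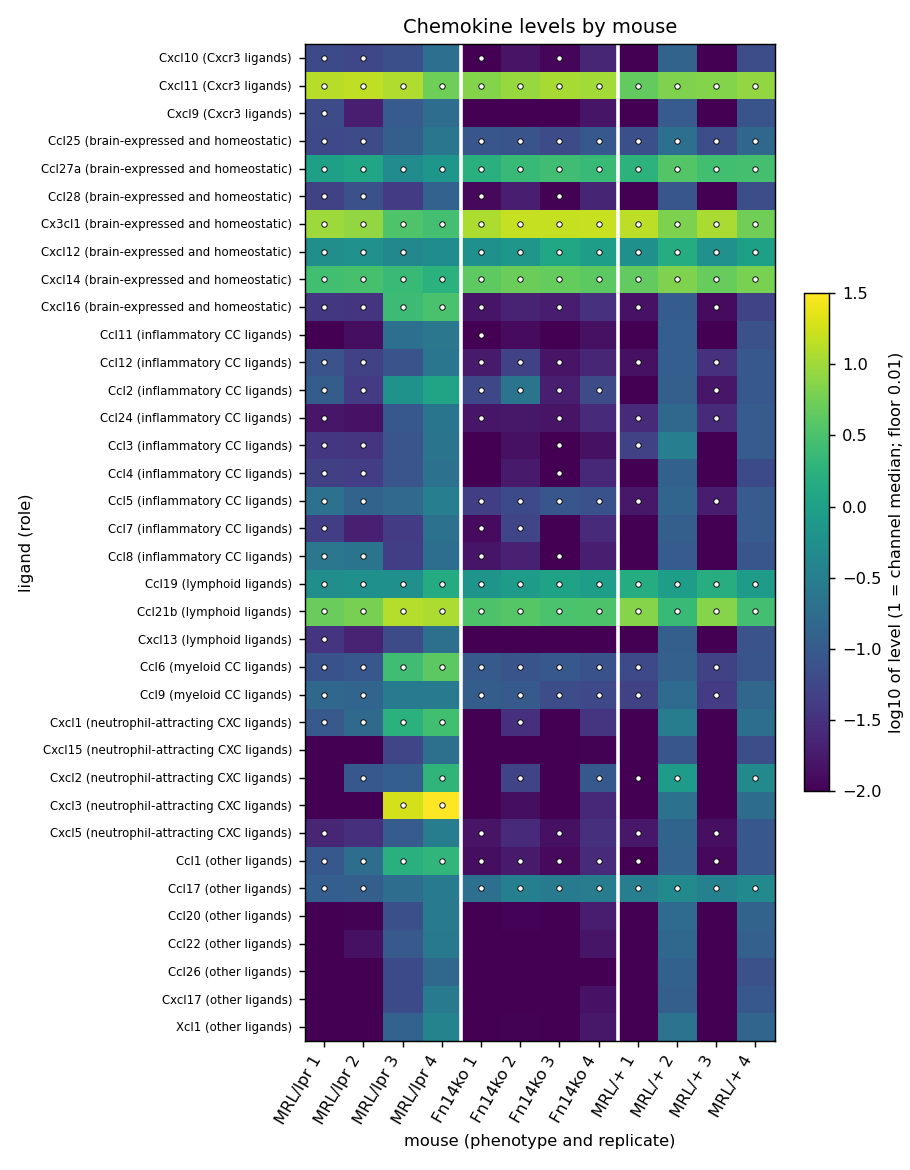
Level of each of the 36 ligands in each of the 12 mice, on a log colour scale, with ligands grouped by role and mice by phenotype; dots mark ligands well above background in that mouse (for Ccl2, by most of its 10 spots; in the counts above, 1 spot was enough). The 6 ligands detected in all 12 mice stand out as full rows of dots, and the weak array (MRL/lpr 3 and 4) and the Cy5 mice of MRL/+ (2 and 4) have few dots.

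The spread of nonspecific signal differed between the phenotypes and bears on every dim member. Of 153 negative-control spots, which match no mouse transcript, 21, 21, 20 and 19 were called well above background in MRL/lpr mice 1 to 4, compared with none in the Fn14ko mice and with 1, 0, 1 and 0 in the MRL/+ mice. Their 95th percentile reached levels of 0.0555, 0.108, 1.51 and 2.55 in MRL/lpr mice 1 to 4, and no more than 0.0321 in Fn14ko mice. In MRL/+ mice it was 0.00556 and 0.00535 in Cy3, and 0.309 and 0.230 in Cy5. A level of 0.1 is therefore far above the controls in Fn14ko mice, and within them on the weak array and in the Cy5 channel of MRL/+. The median log2 difference over all 29608 genes was not 0 either: it was 0.21 for MRL/lpr against MRL/+, 1.34 for MRL/lpr against Fn14ko and -0.97 for Fn14ko against MRL/+. After quantile normalization the same medians were -0.03, -0.01 and -0.02. Differences of dim members are read against these shifts.

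Differences were tested in 2 fits with limma, which models every gene of the array at once. The 10 members with a spot bright in all 12 samples (foreground at least 2 times background, no flag) (18.5% of members, beside 29.9% of all genes) were tested among the 8864 genes of that kind, and the other 44 among all 29608 genes. The 3 comparisons share mice, so they are not independent of each other. For a single member an exact two-sided permutation test with 4 mice a phenotype cannot give a p below 0.0286.

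Against MRL/+, 2 of the 10 brightly measured members passed the threshold of 0.05 on the adjusted p and both were lower in MRL/lpr, Cxcl14 and Ccl27a (background 9.17% of genes in either direction, 5.71% lower). They were also the 2 whose MRL/lpr and MRL/+ mice did not overlap (background 16.1%, 11.6% lower). Cxcl14, a CXC ligand made constitutively in many epithelia and in brain, gave levels of 2.79, 3.08, 2.37 and 1.70 in MRL/lpr mice 1 to 4. Its levels were 4.34, 5.22, 4.75 and 4.19 in Fn14ko mice and 4.53, 6.60, 4.85 and 6.30 in MRL/+ mice. Every MRL/lpr mouse lay below all 8 other mice, the pair on the weak array lowest, while Fn14ko and MRL/+ overlapped. The mean was 2.49 ± 0.597 (SD, n = 4) in MRL/lpr and 5.57 ± 1.03 in MRL/+, a log2 difference of -1.18 with a standard error of 0.25 and a limma adjusted p of 0.0192. Against Fn14ko (4.63 ± 0.466) the log2 difference was -0.93 and the limma adjusted p 0.0562. Without the weak array these log2 differences were -0.75 and -0.74, with limma adjusted p of 0.0090 and 0.0129. The call against MRL/+ was lost when MRL/+ 2, 3 or 4 was left out (limma adjusted p up to 0.0794). The probe lies at chr13:56390078-56390137 (mm9, minus strand), as the array design gives it.

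Ccl27a, a CC ligand best known for drawing skin-homing T cells through Ccr10, behaved alike. Its level, averaged over the 3 of its 4 probes that were bright in all 12 samples, was 0.968, 1.18, 0.485 and 0.686 in MRL/lpr mice 1 to 4. In Fn14ko mice it was 1.65, 2.28, 2.64 and 2.34, and in MRL/+ mice 1.82, 3.64, 2.72 and 2.93. MRL/lpr again lay below all other mice, also on its well-measured array. The mean of 0.831 ± 0.308 (SD, n = 4) in MRL/lpr compared with 2.78 ± 0.753 in MRL/+ gave a log2 difference of -1.78 (SE 0.29, limma adjusted p = 0.00788). Against 2.23 ± 0.413 in Fn14ko the log2 difference was -1.48 (SE 0.29, limma adjusted p = 0.0236). The call against MRL/+ held without any 1 of the 12 mice (limma adjusted p up to 0.0362), and that against Fn14ko was lost without MRL/lpr 3 or 4 or without Fn14ko 2, 3 or 4 (limma adjusted p up to 0.0890). Without the weak array the log2 differences were -1.06 (limma adjusted p = 0.0134) against MRL/+ and -1.08 (limma adjusted p = 0.0168) against Fn14ko.

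The 4 Ccl27a probes lie between the positions chr4:41716345-41716404 and chr4:41720610-41720669 (mm9, minus strand), and each of them had a lower mean in MRL/lpr, 0.748 to 0.973, than in Fn14ko, 1.83 to 2.71, and in MRL/+, 2.05 to 3.65. Ccl27a has near-identical copies in the same part of chromosome 4. One of its probes shares a run of bases with a probe of such a copy, Gm20878, which itself ranged from 0.146 to 0.865 in MRL/lpr, from 1.20 to 1.45 in Fn14ko and from 1.41 to 2.01 in MRL/+, so the copies are not separated here. On the weak array the Ccl27a probes were near background, where 12.4% to 19.0% of the negative controls were as bright, and no control was in the other 10 samples. The exact permutation p was 0.0286, the smallest possible, for Ccl27a and Cxcl14 alike against each of the other phenotypes. Neither call held when array was fitted as a random block: the limma adjusted p against MRL/+ was 0.199 for Ccl27a and 0.294 for Cxcl14. With only the 2 phenotypes in the fit, they were 0.0748 and 0.125.

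Several marker lists moved with these differences. The summed level of 8 choroid plexus markers was 9.52 to 38.8 in MRL/lpr, 0.605 to 5.56 in Fn14ko and 1.00 to 2.62 in MRL/+. That of 8 hippocampal markers was 9.07 to 12.2 in MRL/lpr, 5.04 to 7.93 in Fn14ko and 4.51 to 6.66 in MRL/+. The sum of 5 astrocyte markers was 4.48 to 5.85, 2.95 to 4.26 and 2.93 to 3.38 in the same order, and those of 10 microglial and macrophage markers overlapped (9.67 to 13.2, 8.88 to 10.98 and 10.6 to 16.2). The sum of 6 endothelial markers was 6.38, 5.81, 3.04 and 3.35 in MRL/lpr mice 1 to 4, below all Fn14ko mice (6.52 to 10.4) and overlapping with MRL/+ (5.31 to 6.93). Their part in the lower Cxcl14 and Ccl27a was not tested.

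**Figure D2:**
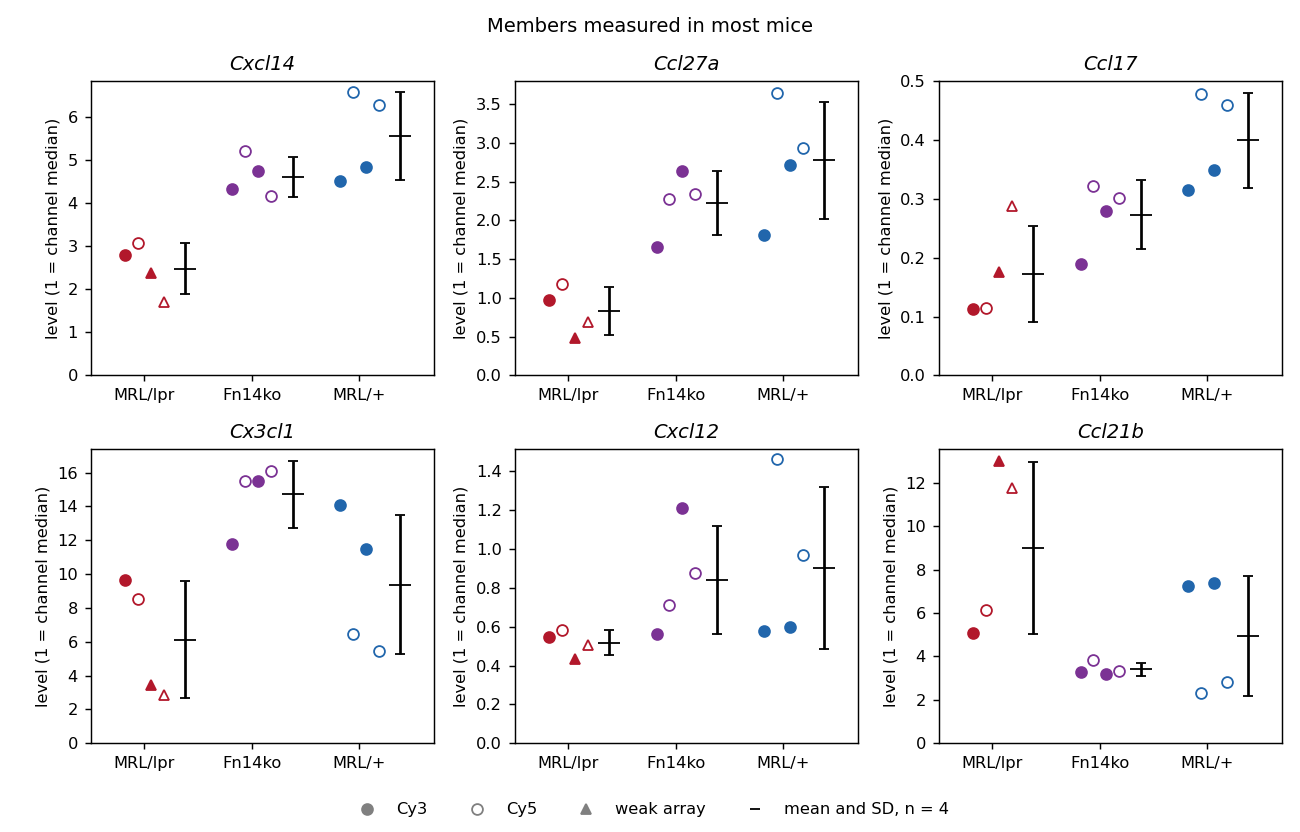
Level (linear axis from 0) of 6 members in each mouse by phenotype, filled for Cy3 and open for Cy5, triangles for the weak array, with the mean and SD of the 4 mice beside them. Cxcl14 and Ccl27a lie lower in all 4 MRL/lpr mice than in any other mouse, and Cx3cl1 and Ccl21b split by dye in MRL/+.

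Fractalkine, the membrane-bound ligand through which neurons signal to microglial Cx3cr1, was bright in every mouse. Cx3cl1 gave 9.63, 8.54, 3.46 and 2.84 in MRL/lpr mice 1 to 4, 11.8, 15.5, 15.5 and 16.1 in Fn14ko mice, and 14.1, 6.48, 11.5 and 5.47 in MRL/+ mice. All Fn14ko mice lay above all MRL/lpr mice, whereas MRL/+ split by dye, the Cy3 mice at 14.1 and 11.5 and the Cy5 mice at 6.48 and 5.47. The log2 difference of MRL/lpr from Fn14ko was -1.45 (SE 0.43, limma adjusted p = 0.0711) and that from MRL/+ -0.71 (limma adjusted p = 0.240). Neither passed the threshold. Without the weak array these log2 differences were -0.77 (limma adjusted p = 0.243) and 0.22 (limma adjusted p = 0.699), while Fn14ko then exceeded MRL/+ by 1.00 (limma adjusted p = 0.0409). The only Cx3cl1 receptor, Cx3cr1, was lower in MRL/lpr than in MRL/+, as given with the pathway genes below.

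Cxcl12, which acts on Cxcr4 and Ackr3 and holds neural progenitors and leukocytes in place, had a bright and a dim probe. The bright one gave 0.923, 1.06, 0.478 and 0.565 in MRL/lpr mice 1 to 4, 1.06, 1.36, 2.36 and 1.66 in Fn14ko mice, and 1.09, 2.75, 1.11 and 1.79 in MRL/+ mice. Over both probes the log2 difference of MRL/lpr was -0.70 from MRL/+ and -0.65 from Fn14ko (limma adjusted p = 0.127 and 0.147). Its dim probe had the opposite order of means, 0.277 ± 0.167 (SD, n = 4) in MRL/lpr beside 0.0703 ± 0.0124 in Fn14ko, with the pair on the weak array at 0.387 and 0.451. Cxcr4 itself was well above background in no mouse.

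Ccl17, a ligand of Ccr4 that dendritic cells and some hippocampal neurons make, was lower in MRL/lpr on the well-measured array. The levels were 0.112, 0.115, 0.176 and 0.287 in MRL/lpr mice 1 to 4, 0.190, 0.323, 0.280 and 0.302 in Fn14ko mice, and 0.314, 0.478, 0.348 and 0.459 in MRL/+ mice. Every MRL/lpr mouse lay below every MRL/+ mouse, but only mice 1 and 2 were well above background. The log2 difference from MRL/+ was -1.30 (SE 0.32) with a limma adjusted p of 0.0509, just above the threshold. With array as a random block the limma adjusted p was 0.269. Without the weak array, so with MRL/lpr 1 and 2 alone, the log2 difference was -1.63 (limma adjusted p = 0.00065) from MRL/+. From Fn14ko it was then -1.32 (limma adjusted p = 0.0034). Both were tested among the genes bright in the remaining 10 samples. Ccl17 was the only one of the 44 other members whose MRL/lpr and MRL/+ mice did not overlap (background 7.64% of all genes, 5.82% lower).

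Ccl25, the thymic and intestinal ligand of Ccr9, had 4 probes, of which 1 was well above background in at least 10 mice. This probe gave 0.178, 0.198, 0.165 and 0.205 in MRL/lpr mice 1 to 4, 0.285, 0.258, 0.166 and 0.281 in Fn14ko mice, and 0.220, 0.427, 0.217 and 0.340 in MRL/+ mice. Over all 4 probes the log2 difference of MRL/lpr was -0.11 from MRL/+ and 0.33 from Fn14ko, neither larger than its standard error of 0.49.

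Among the lymphoid ligands, which guide T and B cells into lymph nodes through Ccr7 and Cxcr5, Ccl19 and Ccl21b were measured in every mouse and Cxcl13 lay at background. The Ccl19 levels were 0.543, 0.568, 0.563 and 1.42 in MRL/lpr mice 1 to 4, 0.646, 0.854, 1.03 and 0.878 in Fn14ko mice, and 1.47, 0.905, 1.4997 and 0.846 in MRL/+ mice. MRL/lpr 4, on the weak array, stood apart from the other 3, and the phenotypes overlapped (log2 difference from MRL/+ -0.69, limma adjusted p = 0.167). Ccl21b gave 5.06, 6.13, 13.02 and 11.7 in MRL/lpr mice 1 to 4, 3.29, 3.84, 3.19 and 3.33 in Fn14ko mice, and 7.26, 2.31, 7.38 and 2.81 in MRL/+ mice. All MRL/lpr mice lay above all Fn14ko mice, the pair on the weak array highest, and MRL/+ again split by dye. Its log2 difference between MRL/lpr and Fn14ko was 1.29 (SE 0.41, limma adjusted p = 0.0831), and 0.62 without the weak array (limma adjusted p = 0.489). The probe also matches transcripts of near-identical copies of Ccl21b, so the copies are not separated. A probe of such a copy, Gm1987, that shares a run of bases with it had the opposite order, 0.0691, 0.0703, 0.138 and 0.256 in MRL/lpr mice 1 to 4 and 0.340 to 0.760 in Fn14ko mice.

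Cxcl13, which attracts B cells, was well above background in 1 mouse only, MRL/lpr 1, at 0.0349. MRL/lpr 2 gave 0.0226, the 4 Fn14ko mice 0.00103 to 0.0103, and the Cy3 mice of MRL/+ 0.00106 and 0.00225. On the weak array the values were 0.0635 and 0.199, and in the Cy5 mice of MRL/+ 0.113 and 0.0785, all below the 95th percentile of the negative controls of the same sample.

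Of the ligands of Cxcr3, the receptor of activated T cells, Cxcl11 appeared bright in all mice and Cxcl9 and Cxcl10 were near background. Cxcl11 had 2 probes. The brighter, at chr5:92788567-92788626 (mm9, minus strand), gave 25.9, 28.9, 20.6 and 8.04 in MRL/lpr mice 1 to 4, 13.7, 18.1, 21.6 and 20.4 in Fn14ko mice, and 8.96, 12.8, 14.0 and 16.6 in MRL/+ mice. The other probe, at chr5:92788640-92788699, gave 0.501, 0.590, 3.503 and 2.55, then 0.278, 0.317, 0.490 and 0.498, then 0.299, 0.366, 0.284 and 0.317. The brighter probe holds the stretch below, shown in capitals because a run of 20 bases of it recurs on probes of other genes.
Cxcl11, 30 bases of the brighter probe: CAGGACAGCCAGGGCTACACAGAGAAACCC
All 7 probes of other genes that share such a run were well above background in all 12 mice, 5 with the run on the same strand (Elk1, Med16, Gm10856, Ndor1 and Glrx2) and 2 with it on the opposite strand (Mta3 and Timmdc1). How much of the bright signal is that of the Cxcl11 transcript was not tested. Over both probes no comparison passed the test (log2 difference of MRL/lpr from MRL/+ 0.69, limma adjusted p = 0.172), and without the weak array that difference was 1.25 (limma adjusted p = 0.0083).

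**Figure D3:**
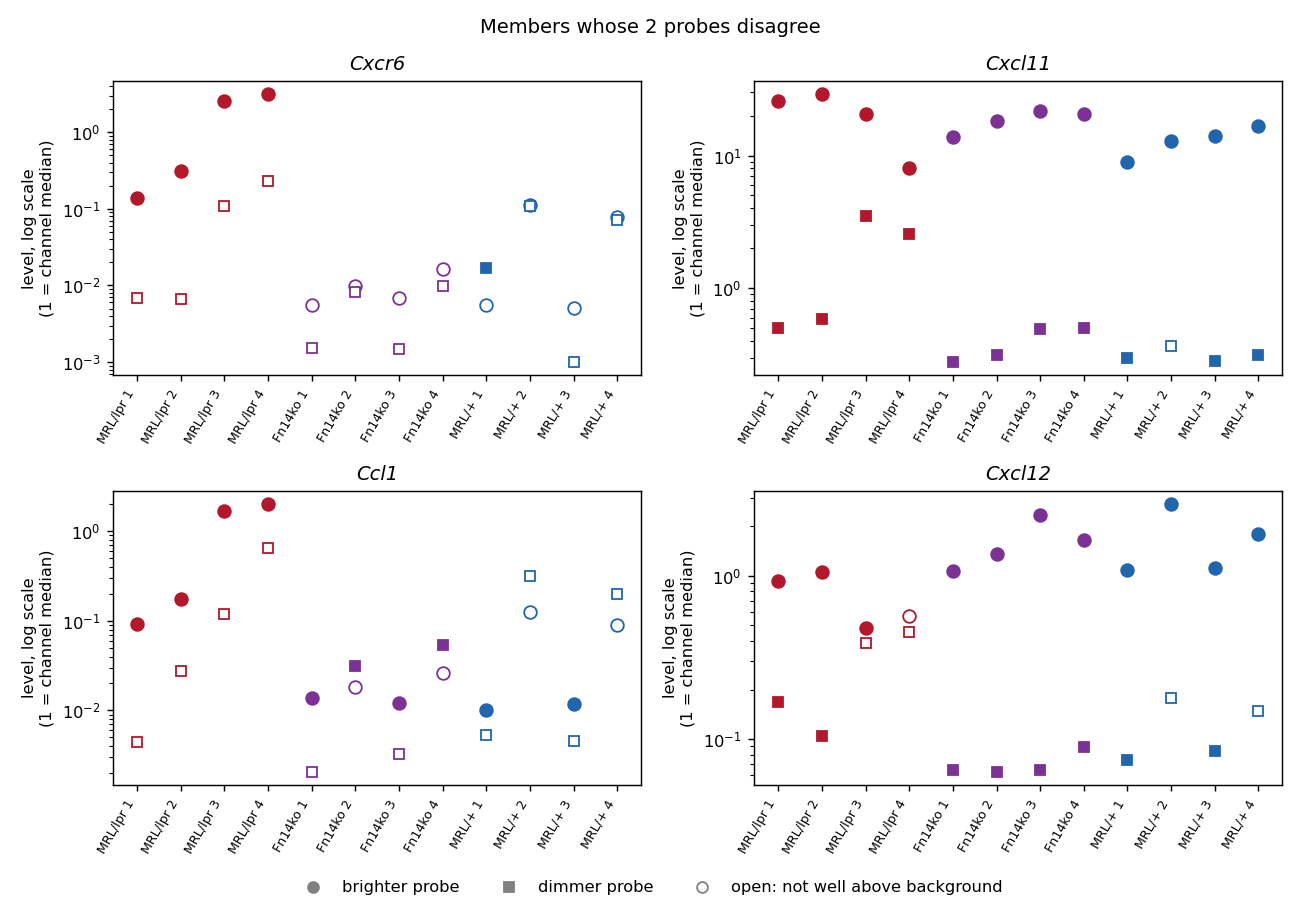
Level (log axis) of Cxcr6, Cxcl11, Ccl1 and Cxcl12 in each mouse by the probe that was brighter in MRL/lpr (circles) and the one that was dimmer there (squares), coloured by phenotype and open where not well above background; a value under 0.001 is drawn at 0.001. The brighter Cxcl11 probe lies between 8.04 and 28.9 in every mouse, and the brighter Cxcr6 probe separates MRL/lpr from the other phenotypes where the dimmer one does not.

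Cxcl10, the interferon-induced chemokine also called IP-10, was well above background in some mice by 1 of its 2 probes. This gave 0.114, 0.101, 0.0888 and 0.205 in MRL/lpr mice 1 to 4, 0.00931, 0.0203, 0.0130 and 0.0335 in Fn14ko mice, and 0.00362, 0.108, 0.00819 and 0.0539 in MRL/+ mice. On the well-measured array MRL/lpr 1 and 2 stood above all Fn14ko mice and above the Cy3 mice of MRL/+, whereas the weak array and the Cy5 mice of MRL/+ lay within their negative controls. Of those controls, 1.96% in MRL/lpr 1 and 5.88% in MRL/lpr 2 were as bright as Cxcl10. Cxcl9 gave 0.0984 and 0.0283 in MRL/lpr 1 and 2 by one probe and 0.0325 and 0.0107 by the other, and both probes were well above background in MRL/lpr 1 only. The first gave 0.00382 to 0.0145 in Fn14ko mice and 0.00205 and 0.00270 in the Cy3 mice of MRL/+. Neither gene was well above background in all 4 mice of any phenotype, so no fold change is given.

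The stretch of 250 bases before the Cxcl10 start (GRCm38.p6, chr5:92348890-92349139, minus strand, from RefSeq) is shown because it holds matches, in capitals, to both motifs searched in the members, the NF-kB motif (GGGA and TTCC with any 2 bases between them) and the interferon response motif (TTTC, any 2 bases, TTTC), the latter here on the reverse strand.
Cxcl10, 250 bases before the start: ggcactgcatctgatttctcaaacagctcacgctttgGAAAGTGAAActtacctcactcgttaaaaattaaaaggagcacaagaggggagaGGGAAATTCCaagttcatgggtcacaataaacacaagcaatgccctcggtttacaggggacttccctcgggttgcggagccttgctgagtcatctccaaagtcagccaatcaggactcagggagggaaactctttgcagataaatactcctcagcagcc
On either strand the NF-kB motif occurred in 6 of the 39 members with a promoter in the RefSeq table (Ccl1, Ccr3, Cxcl1, Cxcl10, Cxcl2 and Cxcl3), beside 1.21% of all 32851 promoters of the same length. The interferon response motif occurred in 3 (Ccl19, Cxcl10 and Cxcl14), beside 2.98%. Such a match is a description of the letters and not a site in use.

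Inflammatory CC ligands call monocytes, T cells and eosinophils to sites of injury, and Ccl8 was the member of this group that passed the test between MRL/lpr and Fn14ko. Ccl8, a monocyte attractant, gave 0.246, 0.224, 0.0449 and 0.184 in MRL/lpr mice 1 to 4, 0.0158, 0.0211, 0.00940 and 0.0198 in Fn14ko mice, and 0.00631, 0.103, 0.00721 and 0.0872 in MRL/+ mice. MRL/lpr 1 and 2 exceeded all Fn14ko mice, and each exceeded the MRL/+ mice of its dye. In the Cy5 mice of MRL/+, however, 100% of the negative controls were as bright as Ccl8. The median level of those controls was 0.255 and 0.187, so MRL/lpr 2 cannot be set apart from background there. MRL/lpr 3 and 4 did not rise above their negative controls, of which 80.4% and 100% were as bright. The scanner software called it well above background in MRL/lpr 1 and 2 and in 2 Fn14ko mice, so its fold change is not given (limma adjusted p = 0.0285 between MRL/lpr and Fn14ko, and up to 0.120 without Fn14ko 2, 3 or 4). Ccl5 (RANTES), an attractant of T cells, gave 0.200, 0.128, 0.159 and 0.310 in MRL/lpr mice 1 to 4, 0.0450, 0.0619, 0.0864 and 0.0765 in Fn14ko mice, and 0.0169, 0.140, 0.0188 and 0.101 in MRL/+ mice. All MRL/lpr mice lay above all Fn14ko mice, and the Cy5 mice of MRL/+ overlapped with MRL/lpr. The log2 difference of Ccl5 between MRL/lpr and Fn14ko was 1.53 (SE 0.62, limma adjusted p = 0.142), beside a median of 1.34 over all genes.

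Over the 9 inflammatory CC ligands, 1 (Ccl8) was called higher in MRL/lpr than in Fn14ko, where 5.37% of all genes were, and none passed the test against MRL/+ or between Fn14ko and MRL/+. Their median log2 difference between MRL/lpr and Fn14ko was 1.97, beside 1.34 over all genes. Against MRL/+ it was 1.00, beside 0.21, and between Fn14ko and MRL/+ it equalled the median of all genes, -0.97. The summed level of 10 T cell markers was 1.31, 2.14, 4.61 and 6.08 in MRL/lpr mice 1 to 4, 0.786 to 1.13 in Fn14ko and 1.44 to 3.90 in MRL/+. That of 6 B and plasma cell markers was 1.52, 0.746, 1.16 and 2.53 in MRL/lpr, 0.0878 to 0.154 in Fn14ko and 0.0925 to 0.912 in MRL/+. Only 2 of these T cell markers and 1 of these B and plasma cell markers were well above background in at least 10 mice. The median negative control was 0.0721 and 0.341 in MRL/lpr 3 and 4, and 0.255 and 0.187 in MRL/+ 2 and 4. The sums therefore hold background signal in these mice. Against Fn14ko, 1 of the T cell markers was called higher, Cd4 (log2 difference 1.38, limma adjusted p = 0.0272). From MRL/+, however, MRL/lpr differed in Cd4 by 0.03 (limma adjusted p = 0.944), and Fn14ko by -1.35 (limma adjusted p = 0.0661). Also against Fn14ko, 3 of the B and plasma cell markers were called higher: Jchain, of plasma cells (4.75, limma adjusted p = 0.0134), Cd79a (limma adjusted p = 0.0451) and Mzb1 (limma adjusted p = 0.0457, well above background in 2 mice of each phenotype). Against MRL/+, Jchain was called higher too (3.67, limma adjusted p = 0.0245). Jchain was 1.20, 0.563, 0.421 and 0.848 in MRL/lpr mice 1 to 4, at most 0.0457 in Fn14ko and at most 0.252 in MRL/+, and was well above background in 2 mice of each phenotype. The defining markers Cd3g and Ms4a1 were well above background in no mouse. Whether these cells had a part in the chemokine values was not tested.

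**Figure D4:**
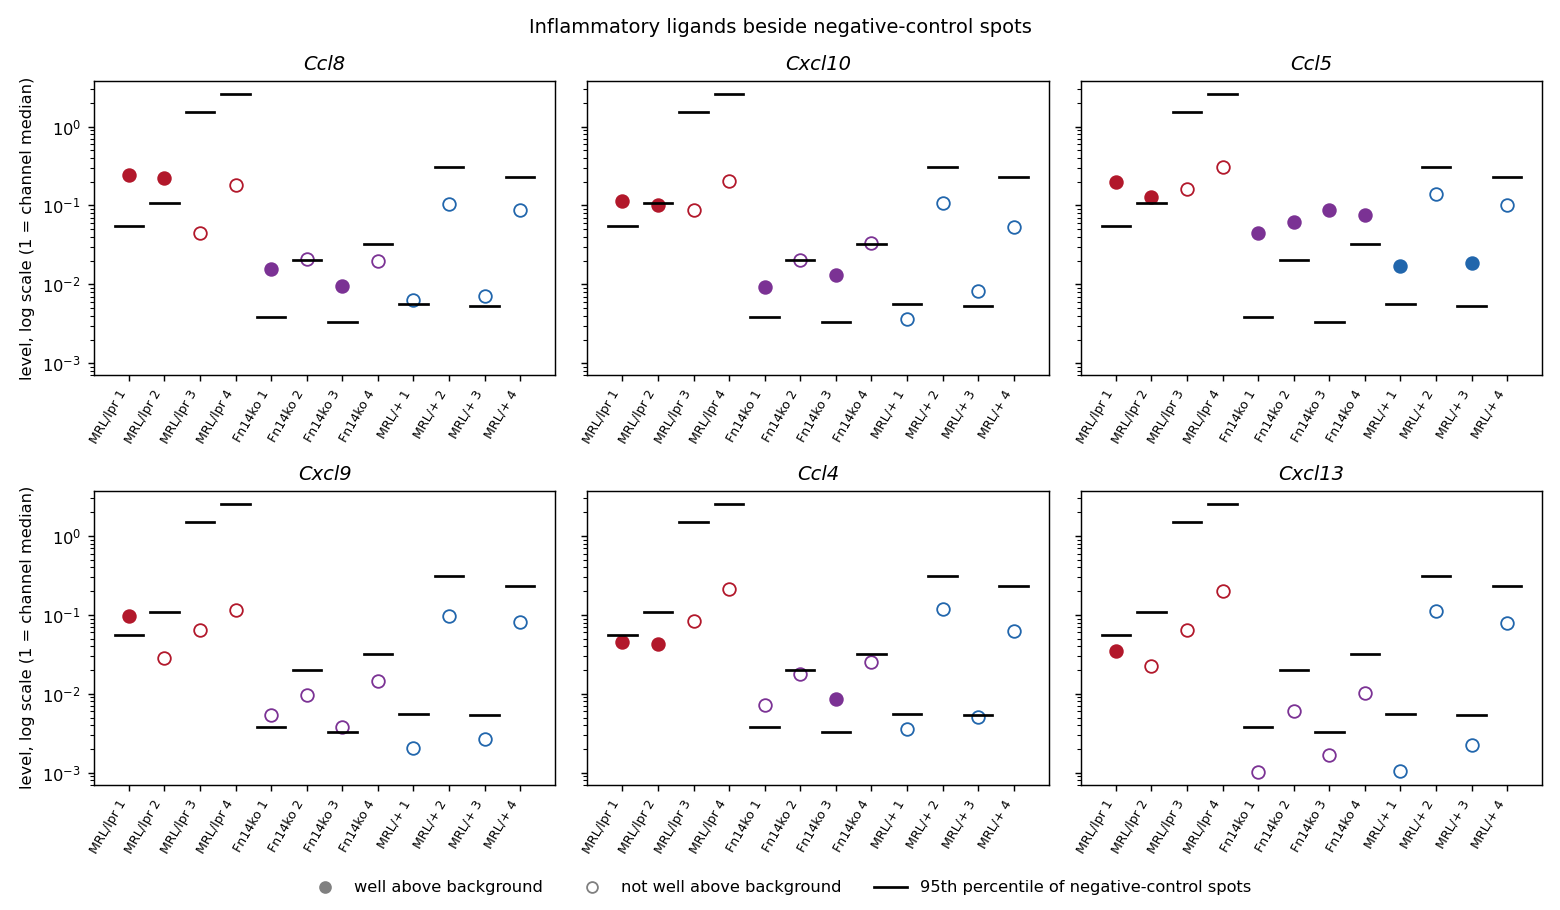
Level (log axis) of Ccl8, Cxcl10, Ccl5, Cxcl9, Ccl4 and Cxcl13 in each mouse, filled where well above background, with Cxcl10 and Cxcl9 by the first of the probes described above and a black line at the 95th percentile of the 153 negative-control spots of the same sample. In MRL/lpr 1 and 2 Ccl8 lies above that line and above the Fn14ko mice, whereas on the weak array and in MRL/+ 2 and 4 all 6 members lie below it.

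Ccl2 (MCP-1), the main monocyte attractant and a known target of TWEAK signalling, was printed 10 times on each array. The median of its 10 spots was 0.110, 0.0393, 0.0912 and 0.234 in MRL/lpr mice 1 to 4, 0.0554, 0.213, 0.0176 and 0.0603 in Fn14ko mice, and 0.00644, 0.115, 0.0158 and 0.0947 in MRL/+ mice. The phenotypes overlapped, and Fn14ko 2 exceeded 3 of the 4 MRL/lpr mice. On the weak array 2 of the 10 spots stood far above the other 8, at 3.33 and 2.21 in MRL/lpr 3 and at 5.77 and 3.28 in MRL/lpr 4, where the third highest were 0.149 and 0.476. The mean over spots therefore gave a log2 difference between MRL/lpr and Fn14ko of 1.90 (exact permutation p = 0.200), and the median over spots one of 0.72 (exact permutation p = 0.457). Over 399 probes printed in 10 spots, 6.97% and 7.24% of spots exceeded 5 times the median of their probe on the weak array, 1.80% and 2.21% in MRL/lpr 1 and 2, and at most 0.125% in the other 8 samples. Most other members have 1 spot and cannot be checked in this way.

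**Figure D5:**
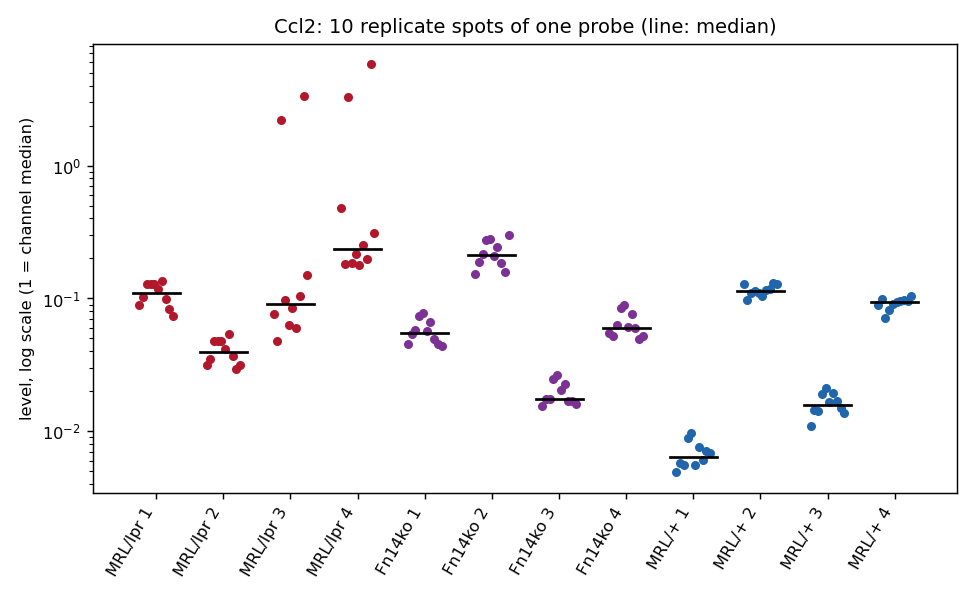
Level (log axis) of each of the 10 Ccl2 spots in each mouse, with a line at the median. In MRL/lpr 3 and 4, which share the weak array, 2 spots between 2.21 and 5.77 stand apart from the other 8, and the other 10 mice hold none above 0.302.

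Among the members tested between MRL/lpr and Fn14ko, 2 of the 10 brightly measured ones passed the threshold, Ccl27a lower and Ccl1 higher in MRL/lpr (background 3.98%, 1.77% lower and 2.21% higher). The phenotypes did not overlap for 6 of the 10 (background 21.5%, 11.2% higher and 10.3% lower), with Ccl1, Ccl21b and Cxcl16 higher and Ccl27a, Cx3cl1 and Cxcl14 lower in MRL/lpr. Of the 44 others, 4 passed, all higher in MRL/lpr (background 6.83% in either direction, 5.37% higher): Ccl8, Ccr3, Cxcl1 and Cxcr6. The phenotypes did not overlap for 18 of the 44, again all higher in MRL/lpr (background 18.4%, 13.5% higher), in a comparison where the median of all genes was itself 1.34 higher. They included the ligands Ccl12, Ccl28, Ccl3, Ccl4, Ccl5, Ccl8, Ccl9, Cxcl1, Cxcl10, Cxcl13 and Cxcl9, and the receptors Ccr3, Ccr8, Ccr10, Cxcr3, Cxcr4 and Cxcr6. Overlap among the 44 was judged on levels with the floor of 0.01. All Fn14ko values of Ccr3 and Cxcr4 stood at this floor, and those of Cxcl13 lay at 0.01 to 0.0103. Cxcr4 was well above background in no mouse, and MRL/lpr 1 had it at 0.0104. All 6 calls were lost with array as a random block.

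Ccl1, a T cell-derived ligand of Ccr8, was bright in MRL/lpr by 1 of its 2 probes. It gave 0.0917, 0.176, 1.67 and 2.02 in MRL/lpr mice 1 to 4, 0.0137, 0.0181, 0.0122 and 0.0259 in Fn14ko mice, and 0.0102, 0.126, 0.0119 and 0.0902 in MRL/+ mice. All MRL/lpr mice lay above all Fn14ko mice, and the weak array was about an order of magnitude above the other MRL/lpr array. The log2 difference from Fn14ko was 4.85 (SE 1.14, limma adjusted p = 0.0408) and 2.84 without the weak array (limma adjusted p = 0.0106). From MRL/+ it was 3.82 (limma adjusted p = 0.0556). The call against Fn14ko was lost in 10 of 12 fits that left out 1 mouse, all but those without MRL/lpr 1 or 2 (limma adjusted p up to 0.136). The second Ccl1 probe was well above background in no MRL/lpr mouse, and 1.96% to 6.54% of the negative controls were as bright as the first.

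Cxcl1, a neutrophil attractant acting on Cxcr2, followed the same order. It gave 0.0937, 0.163, 1.74 and 2.71 in MRL/lpr mice 1 to 4, 0.00214, 0.0300, 0.00575 and 0.0343 in Fn14ko mice, and 0.00383, 0.306, 0.00654 and 0.185 in MRL/+ mice. The Cy5 mice of MRL/+ reached above MRL/lpr 1 and 2, though no MRL/+ mouse was well above background. In the fit the floor left the Fn14ko values at 0.01, 0.0300, 0.01 and 0.0343, and 1 Fn14ko mouse was well above background. The size of the difference from Fn14ko thus depends on the floor. The log2 difference between MRL/lpr and Fn14ko was 4.85 (SE 1.05, limma adjusted p = 0.0204) and 3.39 without the weak array (limma adjusted p = 0.0102). Leaving out MRL/lpr 4 or Fn14ko 2, 3 or 4 removed this call (limma adjusted p up to 0.0852). Against MRL/+, where no mouse was well above background, the comparison did not pass the test (limma adjusted p = 0.101). By means of log2 levels over the 4 mice MRL/lpr was at least 10.5-fold higher. This bound allows for the dim MRL/+ signals only and takes the weak array as measured. MRL/lpr 1 and 2 lay below the lowest detected signals of the Cy5 mice of MRL/+, 0.353 and 0.255. Of the negative controls, 1.96%, 2.61%, 4.58% and 5.23% were as bright in MRL/lpr mice 1 to 4. The summed level of 5 neutrophil markers was 0.339 to 1.12 in MRL/lpr, 0.234 to 0.493 in Fn14ko and 0.102 to 0.714 in MRL/+, and its part was not tested. None of these markers was well above background in at least 10 mice.

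Several members were bright on the weak array alone. Ccl6, a CC ligand of myeloid cells, gave 0.0758, 0.0882, 2.65 and 4.21 in MRL/lpr mice 1 to 4, 0.0763 to 0.0980 in Fn14ko mice and 0.0493 to 0.119 in MRL/+ mice. MRL/lpr 1 and 2 did not differ from the other phenotypes beyond the spread between mice, and the log2 difference from Fn14ko was 2.59 (limma adjusted p = 0.137) with the weak array and -0.18 without it. Cxcl16, the membrane-bound ligand of Cxcr6, gave 0.0367, 0.0339, 2.47 and 3.13 in MRL/lpr mice 1 to 4, 0.0159 to 0.0319 in Fn14ko mice and 0.0125 to 0.104 in MRL/+ mice. Its log2 difference from Fn14ko was 3.88 (SE 1.55, limma adjusted p = 0.114) and 0.64 without the weak array (limma adjusted p = 0.567). Cxcl3, named here after its values were seen, showed the pattern most plainly, with 19.0 and 51.8 on the weak array beside 0.00155 and 0.0101 in MRL/lpr 1 and 2.

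No receptor had a spot bright in all 12 samples. Cxcr6, the receptor of Cxcl16 on T and natural killer cells, had 2 probes that share 50 of their 60 bases. The stretches below are where the 2 differ, shown because their signals disagree, with the bases that the other probe lacks in capitals.
Cxcr6, brighter probe, last 30 bases: ggactctggtggctttgctcATCTAAAAAA
Cxcr6, dimmer probe, first 30 bases: AATGTATAAAacagagcttaagactttaac
The brighter, at chr9:123720719-123720778 (mm9, plus strand), gave 0.140, 0.308, 2.56 and 3.10 in MRL/lpr mice 1 to 4, 0.00562, 0.00991, 0.00685 and 0.0166 in Fn14ko mice, and 0.00556, 0.111, 0.00504 and 0.0778 in MRL/+ mice. It was well above background in all 4 MRL/lpr mice and in no other mouse. By means of log2 levels over the 4 mice it was at least 46.6-fold higher than in Fn14ko and at least 15.5-fold higher than in MRL/+. These bounds allow for the dim phenotype only and take the weak array as measured, where 3.92% of negative controls were as bright. The lowest detected signal was 0.353 and 0.255 in the Cy5 mice of MRL/+, and MRL/lpr 1 lay below both. No bound without the weak array was computed. The dimmer, at chr9:123720709-123720768, gave 0.00685, 0.00667, 0.109 and 0.230 in the MRL/lpr mice and was well above background in none of them. In the test over both probes the floor left the Fn14ko values at 0.01, 0.01, 0.01 and 0.0133. The limma adjusted p was 0.0127 against Fn14ko, 0.0022 without the weak array, and 0.0675 against MRL/+. Leaving out Fn14ko 2 or 4 removed the call (limma adjusted p up to 0.0660). A difference by 1 of 2 probes that overlap so far cannot be assigned to the Cxcr6 transcript with these data.

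Ccr3, the eosinophil receptor of Ccl11 and Ccl24, gave 0.0619, 0.0952, 0.146 and 0.203 in MRL/lpr mice 1 to 4, 0.00619, 0.00843, 0.00561 and 0.00984 in Fn14ko mice, and 0.00572, 0.0841, 0.00786 and 0.0824 in MRL/+ mice. Of all 12 mice, 2 MRL/lpr mice had it well above background, so no fold change is given. It did pass the test against Fn14ko (limma adjusted p = 0.0227, and up to 0.105 without MRL/lpr 3 or 4 or Fn14ko 2, 3 or 4). All 4 Fn14ko values of Ccr3 stood at the floor of 0.01 in that test, so the floor set their spread. Ccr6, the receptor of Ccl20 on B cells and T helper cells, was measured in at least 10 mice. Its levels were 0.207, 0.240, 0.271 and 0.285 in MRL/lpr mice 1 to 4, 0.157, 0.153, 0.222 and 0.179 in Fn14ko mice, and 0.236, 0.416, 0.309 and 0.418 in MRL/+ mice. Every Fn14ko mouse lay below every MRL/+ mouse, while MRL/lpr overlapped with MRL/+. The log2 difference between Fn14ko and MRL/+ was -0.93 (SE 0.29, limma adjusted p = 0.256), beside a median of -0.97 over all genes in that fit, and -0.68 without the weak array (limma adjusted p = 0.0252, among the genes bright in the other 10 samples).

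Among the other receptors, Ccr8 was well above background in 7 mice, Ccr10 in 6, Ccr7 and Ccr9 in 5 each, Ccr1 in 2 and Cxcr3 in 1. The 2 mice with Ccr1 were those of the weak array. Over the 17 receptors of the list, 2 (Ccr3 and Cxcr6) were called higher in MRL/lpr than in Fn14ko, where 5.37% of all genes were, and none passed the test in the other comparisons. The median log2 difference of the receptors was 2.05 between MRL/lpr and Fn14ko, beside 1.34 over all genes.

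Between Fn14ko and MRL/+ no member passed the threshold in limma. Among the 10 brightly measured members it was 0 (background 0.519%). At an unadjusted p under 0.05 it was also 0, beside 1352 of the 8864 genes, and 0 did not overlap (background 19.9%). Among the 44 others it was 0 (background 0.145%). At an unadjusted p under 0.05 there were 2, Ccl3 and Ccr6, beside 2521 of all 29608 genes. For 1, Ccr6, the phenotypes did not overlap (background 10.7%, 8.39% lower). Cxcl14 differed by -0.25 on the log2 scale and Ccl27a by -0.30, with standard errors of 0.25 and 0.29. Likewise, 0 of the 44 passed between MRL/lpr and MRL/+ (background 2.46%). At an unadjusted p under 0.05 there were 8 of the 44, beside 5615 of all 29608 genes. These 8 were Ccl17, lower in MRL/lpr, and Ccl2, Ccl5, Ccl8, Ccl9, Ccr3, Cxcl1 and Cxcr6, with higher means.

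Other genes of chemokine signalling were taken from a list of 42, all on the array, of which 20 were bright in all 12 samples. Against MRL/+, 7 of these 20 fell in MRL/lpr and 1 rose (background 5.71% lower and 3.46% higher). None of these calls held with array as a random block, under which 2 of all 8864 genes were called higher and 5 lower, and without the weak array Ackr1, Gnb1 and Grk2 alone were called, all lower. Those that fell were Cx3cr1, the fractalkine receptor of microglia (log2 difference -1.02, limma adjusted p = 0.0454), Ackr1, a scavenging receptor (-1.94, limma adjusted p = 0.0300), Gnb1, a G protein subunit (-1.76, limma adjusted p = 0.0390), Grk2, a receptor kinase (-1.80, limma adjusted p = 0.0353), Prex1, a Rac activator (-0.85, limma adjusted p = 0.0387), Jak2 (-0.70, limma adjusted p = 0.0479) and Stat3 (-1.11, limma adjusted p = 0.0473). The 1 that rose was Gng5, another G protein subunit (1.23, limma adjusted p = 0.0328). The median of the 20 was -0.33, beside -0.01 over all genes tested.

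Cx3cr1 levels were 0.587, 0.799, 0.281 and 0.396 in MRL/lpr mice 1 to 4, 0.846, 0.768, 1.10 and 0.946 in Fn14ko mice, and 0.865, 1.39, 0.885 and 1.28 in MRL/+ mice. The pair on the weak array was lowest and was not well above background, and MRL/lpr 2 overlapped with Fn14ko. Against Fn14ko, Prex1 alone fell among the 20 (-1.07, limma adjusted p = 0.0269, background 1.77% lower). Its levels were 0.996, 1.30, 0.738 and 0.828 in MRL/lpr, 1.66 to 2.15 in Fn14ko and 1.54 to 1.97 in MRL/+. Of the 22 other pathway genes, Ptk2 fell against MRL/+ (-1.28, limma adjusted p = 0.0494, background 2.46% in either direction). Ppbp, the platelet chemokine (limma adjusted p = 0.0162), and the kinase Lyn (limma adjusted p = 0.0236) were called higher against Fn14ko. In that comparison 5.37% of all genes were called higher and the median of all genes was 1.34 higher. No fold change is given for Ppbp and Lyn since just 2 MRL/lpr mice had each of them well above background. None of the 42 passed the test between Fn14ko and MRL/+.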

How the data were processed

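Hippocampal RNA of 12 mice was labelled with Cy3 or Cy5 and hybridised to 6 Agilent 60-base mouse arrays; the authors scanned them and deposited Agilent Feature Extraction 12.1 output (version from the file headers) with foreground and background intensity per spot, not normalized between arrays, its processed intensity, used as an alternative, and its flags as other values of 0 or 1. Following the authors' methods, local background was subtracted and each channel divided by its median over 10877 spots with foreground at least 2 times background and no flag in all 12 samples; the level of a gene is the mean over its spots and probes. For members without such a spot a fit over all 29608 genes was used, with signals below 1% of the channel median set to 1%. The log2 levels were fitted with limma 3.58.1 (R 4.3.3) with phenotype and dye as terms, Benjamini-Hochberg adjustment over all genes of the fit and a threshold of 0.05. The procedure was run on simulated data with known changes and independent noise of the same spread for every gene. The simulation had no correlation within arrays, no weak array and no floor, so it cannot show how the p-values hold in these data.

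Members with values for every mouse were those with an adjusted p under 0.05, those bright in all 12 samples, those well above background in at least 10, and Ccl2, Cxcl11, Ccl5, Cxcl9, Cxcl10 and Cxcl13; a fold change is given only where all 4 mice of a compared phenotype had a probe well above background, and as a bound where the other phenotype had none (difference of mean log2 levels, taking for each dim sample the higher of the probe and the lowest detected signal). Called members that missed this rule are given with their adjusted p alone. Marker genes were outside it. Members and lists were chosen with earlier results of these data known. Alternatives were the array as a random block, a replicate block, array weights, only the phenotypes compared, each mouse left out, the weak array left out, 3 other normalizations, other detection and floor rules, and the methods' t-test; a median over the Ccl2 spots was added after the data were seen. Nothing states that mice were from separate litters. The limma p-values rest on the spread between samples, pooled over the phenotypes, and treat the mice of an array as independent. Samples of the same array were correlated after phenotype and dye, by 0.71 over the 8864 bright genes and 0.57 over all 29608. Spread between arrays and spread between mice are thus mixed in these p-values. The number of mice and the signal over background limit precision. Probe positions are those of the array design (mm9); whether a probe lies in an exon or UTR was not looked up, as no mm9 annotation was used here. Values of 1 receptor are not reported here.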

Additional observations from a re-analysis of the deposited data

Results flagged for a closer look

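Among 66 groups of 4 mice examined (22 members in 3 phenotypes), 3 held a mouse that stood apart from the other 3 by Dixon's test, about as many as the 1 in 20 that chance gives. Ccl19 was 1.42 in MRL/lpr 4, on the weak array, beside 0.543 to 0.568 in the other MRL/lpr mice. Cx3cl1 was 11.8 in Fn14ko 1, the lowest of a group that reached 16.1. Cxcl10, averaged over its probes, was 0.187 in MRL/lpr 4, beside 0.0558 to 0.0715 in the others, and the signal there was not well above background.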

How the results depend on the processing

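For 28 fold changes of single members, 579 alternative values were computed: 484 kept direction and side of the threshold, 41 lost and 49 gained significance, and 5 turned. These 5 were Cx3cl1 (0.22) and Ccl6 against Fn14ko (-0.18) and Ccl27a between Fn14ko and MRL/+ (0.025) without the weak array, where the Cx3cl1 value is against MRL/+, and with the Agilent processed signal Ccl21b in MRL/lpr against MRL/+ (-1.03) and Cx3cl1 in Fn14ko against MRL/+ (-0.45). The counts of called members are given for the comparisons MRL/lpr with MRL/+, MRL/lpr with Fn14ko and Fn14ko with MRL/+ in this order, first of the 10 bright members (2, 2 and 0) and then of the 44 others (0, 4 and 0). With array as a random block they were 0, 0 and 0, then 0, 0 and 0. With the replicate number as a block they were 2, 1 and 0, then 0, 4 and 0, Ccl1 being lost. This called 174, 102 and 0 of the 8864 bright genes higher and 331, 77 and 0 lower. Among all 29608 genes it called 277, 1267 and 4 higher and 620, 459 and 23 lower. The numbers do not pair the mice, since same-numbered mice deviated from their group means with correlations of -0.40 to 0.50. Array weights, whose estimate did not converge, gave 5, 3 and 1, then 27, 43 and 40. Under them 549, 543 and 1198 of the 8864 bright genes were called higher and 901, 358 and 2216 lower. Among all 29608 genes, 11832, 20648 and 1643 were called higher and 4701, 4540 and 19411 lower. Fitting only the phenotypes compared gave 0, 0 and 0, then 0, 2 and 5. It called 15, 12 and 802 bright genes higher and 22, 6 and 1506 lower. Among all genes it called 19, 488 and 1126 higher and 54, 83 and 3203 lower. The Agilent processed signal gave 6, 4 and 1, then 8, 10 and 0. It called 466, 329 and 3 bright genes higher and 731, 334 and 49 lower. For all genes these were 1747, 2315 and 2, and 819, 596 and 24. Quantile normalization gave 3, 1 and 0, then 2, 1 and 0. It called 287, 82 and 2 bright genes higher and 318, 87 and 10 lower. For all genes these were 418, 218 and 0, and 565, 187 and 0. Loess with Aquantile gave 3, 1 and 0, then 8, 2 and 0. It called 204, 85 and 2 bright genes higher and 367, 86 and 16 lower. For all genes these were 692, 393 and 0, and 1078, 377 and 0. Requiring spots well above background in all 12 samples left 5 members with 1, 0 and 0 calls. Among the 3806 genes left, 243, 132 and 21 were called higher and 261, 75 and 69 lower. Without the weak array, 22 members were bright and 6, 5 and 4 were called, then 3, 4 and 3 of the other 32. Among the 17936 genes then bright, 1095, 733 and 1801 were called higher and 1723, 903 and 1984 lower. For all 29608 genes these were 1537, 1761 and 1750, and 1968, 971 and 2356. A floor at the detection limit gave 0, 2 and 0 of the 44. Among all genes it called 258, 693 and 17 higher and 635, 383 and 113 lower. The methods' t-test with Benjamini-Hochberg adjustment called 0 members in each comparison, and with the methods' own criterion 2, 2 and 0 of the 10 (Ccl27a and Cxcl14 in both comparisons) and 0, 4 and 0 of the 44 (Ccl5, Ccl8, Ccl9 and Ccr3). Leaving out 1 mouse gave 1 to 5, 0 to 7 and 0 to 0 of the 10, and 0 to 7, 0 to 40 and 0 to 0 of the 44, with 7 of the 10 called against Fn14ko without MRL/lpr 1 or 2, none without MRL/lpr 3 or 4 or Fn14ko 2, 3 or 4, and 1 without any other mouse, and with 40 of the 44 without MRL/lpr 2, none without Fn14ko 2 or 4 and 1 without Fn14ko 3. The calls over the whole array moved as well. Against Fn14ko without MRL/lpr 1, 1812 of the 8864 bright genes were called higher and 1741 lower. Without MRL/lpr 2 these were 2467 and 1831, and of all 29608 genes 17547 were called higher and 2988 lower. Without Fn14ko 2 or 4, 67 and 69 of all genes were called higher and 61 lower each. With a foreground of at least 2 times background as the detection call, 13, 27 and 23 members in place of 12, 16 and 10 were detected in all MRL/lpr, Fn14ko and MRL/+ mice. The cause of these changes was not tested. Signal over background limits the 44 dim members, most of which lie within the negative controls in 4 of the 12 samples.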
